A study of Mus musculus with 477 samples.

Results

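The casein genes *Csn1s1*, *Csn1s2a*, *Csn2* and *Csn3* were described across single luminal and tumor cells of the mouse mammary gland. They are 4 of the 21004 genes in the table and were taken by their symbols, as genes for the main proteins of milk, with earlier results of these data known. Reads per gene had been counted in 477 cells captured on Fluidigm C1 chips, a microfluidic device that turns the RNA of each caught cell into full-length cDNA. The cells came from 11 mice in 10 groups, and the mouse was the replicate in every test.

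All mice carried MMTV-Cre, a recombinase under a viral promoter that is active in mammary epithelium. The luminal mice also carried the mT/mG reporter, which turns green in recombined cells. For the tumor mice the paper does not state the reporter. Mice called Br had *Brca1* fl/fl. By the paper's methods, mice called 53 had *Trp53* fl/+ with wild type *Brca1*, and mice called Br53 had both alterations. A supplementary legend of the paper on mammary cells of these 2 genotypes gives *Trp53* fl/fl instead. The mice were females aged 3 to 4 months at the luminal stages, and no group had both genes wild type. The letters v and p stand for virgin mice and for mice at day 12.5 of pregnancy, L for luminal cells sorted as green, CD24 high and CD29 low, and T for CD24+ cells sorted from mammary tumors. The luminal groups were vBrL (35 cells), vBr53L (39), v53L (40), pBrL (71 and 38 cells from 2 mice, called pBrL-1 and pBrL-2), pBr53L (53) and p53L (36). The tumors were BrT1 (47 cells), BrT2 (37), Br53T1 (30) and Br53T2 (51), each from 1 mouse. Each group other than pBrL was thus 1 mouse, and luminal genotype and chip could not be told apart.

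Caseins are phosphoproteins that bind calcium phosphate and are packed into micelles in the secretory pathway of alveolar cells. *Csn1s1*, *Csn1s2a* and *Csn2* encode calcium-sensitive caseins (the alpha S1 type, an alpha S2 type and beta casein), whereas *Csn3* encodes kappa casein, which coats the micelle and keeps it in suspension. Their transcription in luminal cells is known to respond to prolactin through JAK2 and STAT5, together with glucocorticoids, and to rise through pregnancy into lactation.

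The 4 genes lie on chromosome 5 within 266 kb of each other (mm10, GRCm38, with GENCODE vM21 gene models). *Csn1s1* (ENSMUSG00000070702.9) spans 87666208 to 87682578 on the plus strand, *Csn2* (ENSMUSG00000063157.9) 87692624 to 87699630 on the minus strand, *Csn1s2a* (ENSMUSG00000061937.7) 87774567 to 87788797 on the plus strand and *Csn3* (ENSMUSG00000001622.15) 87925579 to 87932665 on the plus strand. Of 54 annotated genes within 500 kb of the cluster, 20 were in the table. Of the 16 that were not members, 3 reached 10 CPM in any mouse, where CPM are a gene's reads scaled to the same total in every mouse or cell. These were *Csn1s2b*, another casein gene, with at most 40.4 CPM, and the sulfotransferase genes *Sult1d1* (13.2) and *Sult1e1* (172 in a tumor). Reads of the antisense gene 1700066N21Rik, which overlaps *Csn3*, numbered 28 over all cells.

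To show the sequence through which STAT5 is known to act on these genes, RefSeq promoter windows (GRCm38.p6, 250 bases before to 50 after the start) were searched for TTCNNNGAA and for the longer-spaced TTCNNNNGAA. Both motifs read the same on either strand. Windows were held for *Csn1s1*, *Csn1s2a* and *Csn2*. Capitals mark the motif in each stretch, which is written 5′ to 3′ on the strand of its gene.
Csn1s1, chr5:87666098-87666126, plus strand: tttgtaacaaTTCTTAGAAtttatgtaaa
Csn1s2a, chr5:87774460-87774488, plus strand: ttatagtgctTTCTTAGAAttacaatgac
Csn2, chr5:87699500-87699528, minus strand: tcacgtagacTTCTTGGAAttgaagggac
Csn2, chr5:87699546-87699575, minus strand: accctagaatTTCTTGGGAAagacaataga
The motif began 100 bases before the RefSeq start in *Csn1s1* and 93 bases before it in *Csn2*. In *Csn1s2a* it began 20 bases after the RefSeq start, which is 97 bases before the start of the first transcript that GENCODE lists for it. The longer-spaced match in *Csn2* began 140 bases before the start, did not overlap the other, and both lay in an exon of another annotated *Csn2* transcript. Of all 32851 windows of this length, 8.30% held TTCNNNGAA and 6.95% held TTCNNNNGAA. These matches are a description of the letters, and no binding was measured.

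Each cell had between 170209 and 3550564 reads, with medians of 1044324 to 2173739 reads per cell by mouse. The markers of luminal cells (*Krt8*, *Krt18*, *Krt19*, *Epcam*, *Cdh1*, *Cd24a*) summed to between 8660 and 13700 CPM in luminal mice, where all 6 were detected. In tumors the sum was between 846 and 6578 CPM, and 2 of the 6 had no read in BrT1. Hormone-sensing luminal markers summed to 5064 CPM in v53L against 211 to 1760 CPM in the other luminal mice. Immune markers reached 858 CPM in pBr53L and 407 in vBrL, and fibroblast markers 579 CPM in vBr53L, 712 in vBrL and 4955 in BrT1. Basal markers reached 5335 CPM in Br53T2 and mesenchymal markers 9553 CPM in BrT1. Between pregnant and virgin mice the 6 basal markers had a median log2 difference of 5.93, with 0 passing, 1 at an unadjusted p under 0.05, and sums of 88.5 to 375 CPM against 0 to 69.5 CPM. The 4 immune markers tested had a median of 2.55, with 0 passing or at an unadjusted p under 0.05. Other marker sets went both ways. The 1 fibroblast marker tested had -7.77, at an unadjusted p under 0.05 (8.99% of all genes). The 2 red cell markers tested had a median of -4.06 and the 1 endothelial marker tested had 4.43, with 0 of these at that level. The part of other cell types in the casein values was not tested.

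Caseins took 3.48% to 4.09% of all reads in the 3 virgin mice, and 9.61% to 17.4% in the 4 pregnant mice. In every pregnant mouse *Csn1s1*, *Csn1s2a* and *Csn2* were the 3 most abundant genes of the table by CPM. In the virgin mice the 4 caseins ranked between 2 and 15. In the tumors caseins took 0.000439% of reads in BrT1 and 0.368% to 0.379% in the other 3. The casein cluster was thus already among the leading transcripts of sorted luminal cells without a pregnancy, and the plot of single cells shows how unevenly it was carried.

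**Figure D1:**
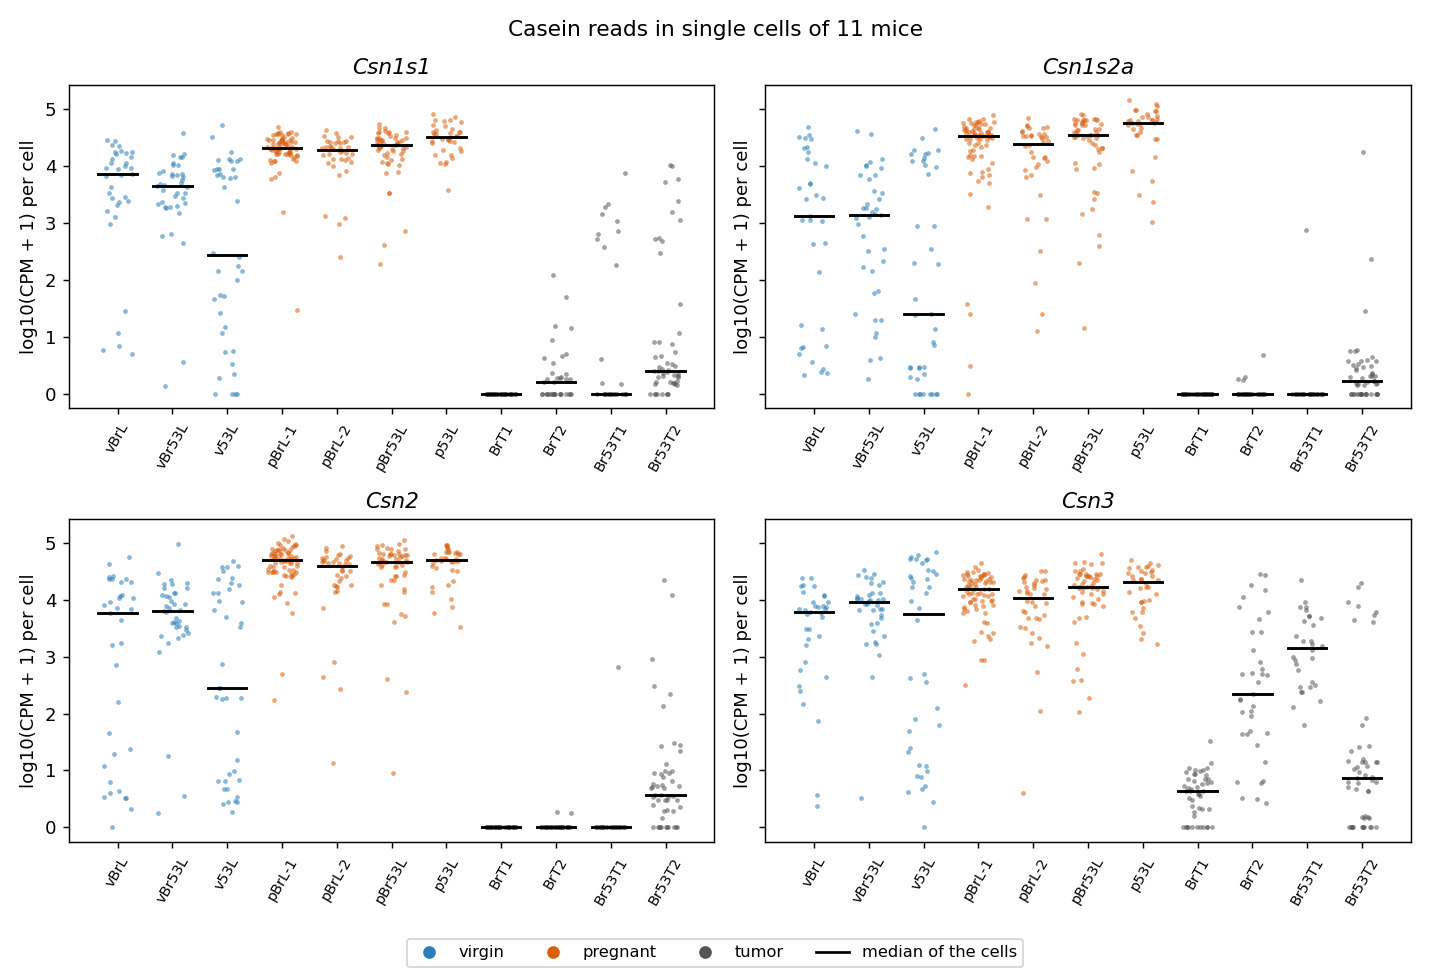
Each point is a cell, placed by its log10(CPM + 1) of the casein named above the panel (vertical axis) and by mouse (horizontal axis), with virgin luminal mice in blue, pregnant luminal mice in orange, tumors in grey and a black bar at the median of the cells. Most pregnant cells lie in a band near the top, virgin cells spread far down the axis, and among tumors *Csn3* alone has a raised median in BrT2 (218 CPM) and Br53T1 (1394 CPM).

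The first comparison asked how each casein differed between pregnant and virgin luminal mice of the same 3 genotypes. *Csn2*, the gene of beta casein, had 9372 CPM in v53L, 10645 in vBrL and 11616 in vBr53L, with reads summed over the cells of each mouse. It had 52124 CPM in pBrL-1, 37770 in pBrL-2, 46823 in pBr53L and 51276 in p53L. The arms did not overlap, and the virgin mice differed little among themselves.

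*Csn1s2a* had 5297 CPM in vBr53L, 6855 in v53L and 8920 in vBrL. It had 32358 CPM in pBrL-1, 25584 in pBrL-2, 36447 in pBr53L and 62867 in p53L. It was the casein with the largest pregnant to virgin ratio of means (5.60-fold), and p53L stood above the other pregnant mice.

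*Csn1s1* had 6778 CPM in vBr53L, 6823 in v53L and 9902 in vBrL. It had 22651 CPM in pBrL-1, 19484 in pBrL-2, 23877 in pBr53L and 36572 in p53L. All pregnant mice were again above all virgin mice, with p53L highest.

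*Csn3*, the gene of kappa casein, was lowest in vBrL, at 6954 CPM, with 11145 in vBr53L and 17830 in v53L. It had 16219 CPM in pBrL-1, 13252 in pBrL-2, 19699 in pBr53L and 22841 in p53L. Here the arms overlapped, because v53L lay above both pBrL mice, and pregnant mice had a mean of 18003 ± 4165 CPM (SD, n = 4) against 11977 ± 5486 CPM (SD, n = 3).

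In the fit across all genes, which had genotype as a covariate, the pregnant against virgin difference was 2.49 ± 0.37 (log2, SE) for *Csn1s2a* (edgeR adjusted p = 0.116). It was 2.22 ± 0.28 for *Csn2* (edgeR adjusted p = 0.0637), 1.73 ± 0.33 for *Csn1s1* (edgeR adjusted p = 0.181) and 0.83 ± 0.26 for *Csn3* (edgeR adjusted p = 0.436). None of the 4 passed a threshold of 0.05 in this fit. With chip as a block, *Csn1s2a* passed (3.07, edgeR adjusted p = 0.0208) and the other 3 did not. By p, *Csn2* ranked 9, *Csn1s2a* 17, *Csn1s1* 54 and *Csn3* 356 among the 13709 genes tested, of which edgeR called 2 (0.0146%), both lower in pregnancy, and 1232 had an unadjusted p under 0.05. The median difference over all genes tested was 0.14. The 3 caseins whose pregnant mice were all above the virgin mice stood against 6.11% of all genes with that arrangement.

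The calls for *Csn1s1*, *Csn1s2a* and *Csn2* depended on the settings and on the tool. Without the filter on low counts edgeR called all 3 (adjusted p = 2.45e-05, 3.23e-09 and 4.03e-08), among 366 of 18426 genes. Without the genotype covariate it called *Csn2* (edgeR adjusted p = 0.0175), among 17 of 12615 genes. DESeq2 called *Csn1s1* (adjusted p = 0.000843), *Csn1s2a* (adjusted p = 2.48e-06) and *Csn2* (adjusted p = 7.33e-10), among 1285 genes, and left *Csn3* at an adjusted p of 0.0799. Mice of the 2 stages were on the same chip in 2 cases. On chip SC7 (pBr53L and vBr53L) the differences of log2(CPM + 1) were 1.82 for *Csn1s1*, 2.78 for *Csn1s2a*, 2.01 for *Csn2* and 0.82 for *Csn3*. On chip SC9 (p53L and v53L) they were 2.42, 3.20, 2.45 and 0.36 in the same order, so each casein was higher in the pregnant mouse on both chips. In Br mice, whose stages were on different chips, the differences were 1.09, 1.69, 2.06 and 1.08. With so few mice per genotype these values have no test.

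The only group with 2 mice gave a measure of how far mice of 1 group can differ. Between pBrL-1 and pBrL-2 the log2 difference was 0.22 for *Csn1s1*, 0.34 for *Csn1s2a*, 0.46 for *Csn2* and 0.29 for *Csn3*. When the 7 luminal mice were ordered by CPM, 1 of the 6 gaps between neighbours exceeded this for *Csn2*, and it was the gap of 1.70 between the lowest pregnant and the highest virgin mouse. For *Csn3* it was also 1 gap, but it lay at the bottom, between vBr53L and vBrL. For *Csn1s1* 3 gaps and for *Csn1s2a* 4 gaps exceeded it, among them the gap between the stages (0.98 and 1.52) and the gap between p53L and pBr53L (0.62 and 0.79). No group other than pBrL gave such a spread, and pBrL-1 and pBrL-2 were on different chips.

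**Figure D2:**
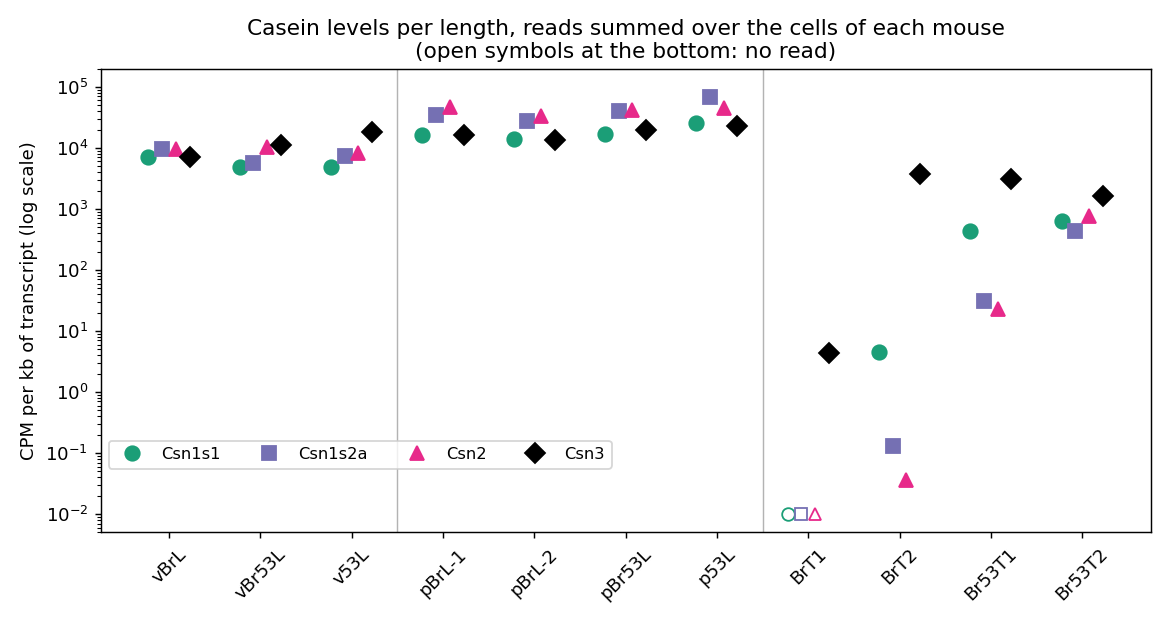
Casein levels per mouse as CPM per kilobase of transcript on a log axis, from reads summed over cells, with virgin mice left, pregnant mice middle and tumors right, and open symbols for a casein with no read. *Csn3* lies above the other 3 in vBr53L, in v53L and in every tumor, and below *Csn2* and *Csn1s2a* in every pregnant mouse.

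Next, the caseins were compared with each other, as reads per kilobase of the first transcript that GENCODE lists (1411 bases for *Csn1s1*, 920 for *Csn1s2a*, 1117 for *Csn2* and 991 for *Csn3*). Kappa casein was set against each calcium-sensitive casein in turn. *Csn3* had 0.736 times the level of *Csn2* in vBrL, 1.08 times in vBr53L and 2.14 times in v53L. In pregnancy the ratio was 0.351 in pBrL-1, 0.395 in pBrL-2, 0.474 in pBr53L and 0.502 in p53L. The pregnant mice were thus close together and all below the virgin mice.

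On the log2 scale the ratio was 0.26 ± 0.78 (SD, n = 3) in virgin and -1.23 ± 0.24 (SD, n = 4) in pregnant mice, a difference of -1.49 (exact permutation p = 0.0286, two-sided, the smallest that 35 splits allow). The *Csn3* to *Csn1s2a* log2 ratio differed by -1.77 (exact permutation p = 0.0286) and also did not overlap, with 0.724, 1.95 and 2.41 times the level in vBrL, vBr53L and v53L and 0.337 to 0.502 times in pregnant mice. The *Csn3* to *Csn1s1* log2 ratio differed by -1.03 and overlapped (exact permutation p = 0.0857). By genotype its difference was -2.07 in 53, -0.995 in Br53 and -0.0092 in Br mice, which was not tested. Among the calcium-sensitive caseins, *Csn1s2a* had 1.38, 1.199 and 1.54 times the level of *Csn1s1* in vBrL, vBr53L and v53L and 2.01 to 2.64 times in pregnant mice (log2 difference 0.74, exact permutation p = 0.0286). The *Csn1s2a* to *Csn2* ratio (log2 difference 0.28, exact permutation p = 0.514) and the *Csn1s1* to *Csn2* ratio (-0.46, exact permutation p = 0.143) overlapped between the stages. The 18 main exact tests on ratios, spread, shares and receptor classes were adjusted together by Benjamini-Hochberg, and the exact permutation p of 0.0286 became 0.0514, above the threshold. Exact p-values of alternatives and of differences between stages are outside these 18 and are unadjusted.

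**Figure D3:**
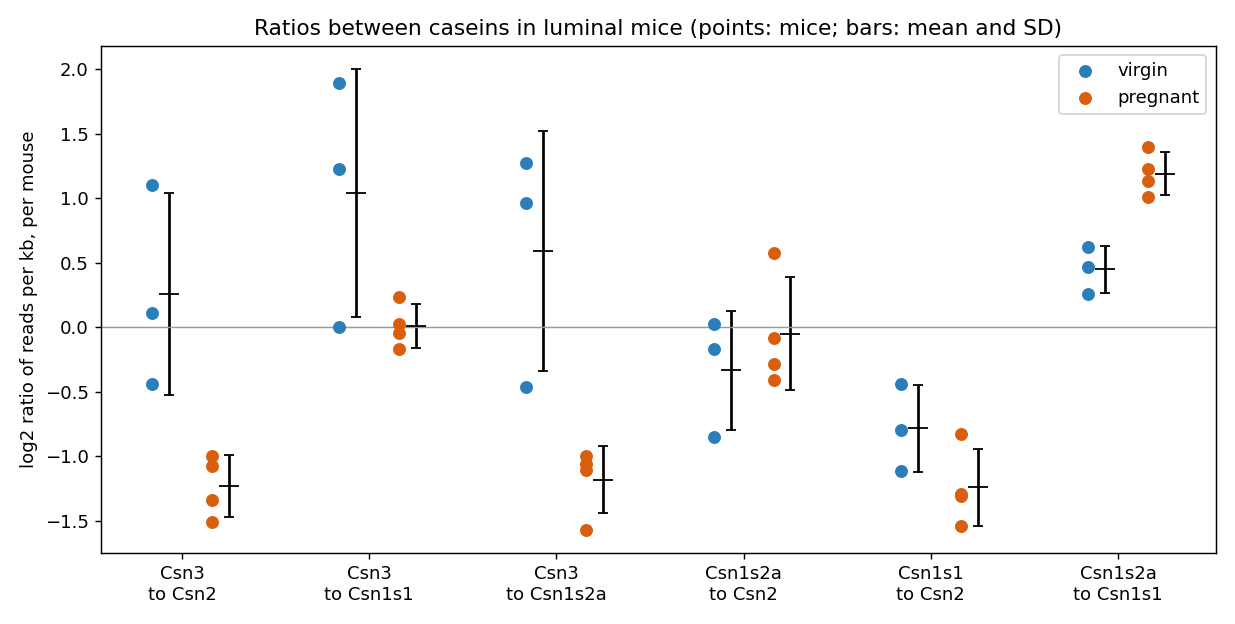
Log2 ratios of reads per kilobase for the 6 pairs of caseins (vertical axis), with each luminal mouse as a point, virgin in blue and pregnant in orange, and the mean and SD of each arm in black. The 2 arms do not overlap for *Csn3* to *Csn2*, *Csn3* to *Csn1s2a* and *Csn1s2a* to *Csn1s1*.

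The ratio was also taken cell by cell. Among cells with reads of both genes, the median *Csn3* to *Csn2* ratio was 1.42 in vBrL, 1.24 in vBr53L and 3.40 in v53L. It was 0.353 in pBrL-1, 0.382 in pBrL-2, 0.492 in pBr53L and 0.516 in p53L. In virgin mice the median cell therefore lay further towards *Csn3* than the summed reads did. With the median over cells in place of the sum, the *Csn1s1* to *Csn2* log2 difference became -0.92 (exact permutation p = 0.0286). Lengths from the union of all annotated exons would change each ratio by a constant and leave the differences between stages as they are.

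How evenly cells carried casein was then asked, as the coefficient of variation (CV, SD over mean) of CPM over the cells of a mouse. The CV of *Csn1s2a* was 1.503 in vBrL, 1.95 in vBr53L and 1.73 in v53L, against 0.601 in pBrL-1, 0.748 in pBrL-2, 0.663 in pBr53L and 0.598 in p53L. The CV of *Csn2* was between 1.32 and 1.503 in virgin mice and between 0.511 and 0.617 in pregnant mice. *Csn1s1* had 0.913 to 1.67 against 0.419 to 0.542, and *Csn3* 0.799 to 1.25 against 0.621 to 0.760. For each of the 4 caseins all pregnant mice were below all virgin mice (exact permutation p = 0.0286 each, two-sided, adjusted 0.0514 over the 18 tests). This arrangement was found in 18.3% of the 5309 genes with a read in at least 20% of the cells of every luminal mouse, and the median gene had a mean CV of 2.22 in virgin and 1.86 in pregnant mice.

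Casein reads were less evenly spread over the cells of virgin mice, most so for *Csn1s2a* and least for *Csn3*. The 3 highest cells gave 53.9% of the *Csn1s2a* reads in vBr53L, 48.5% in v53L and 37.5% in vBrL, against 11.7% to 24.4% in pregnant mice. For *Csn3* they gave 24.6%, 33.05% and 25.97% in the same virgin mice, against 12.7% to 24.2% in pregnant mice. Caseins summed took less than 0.1% of the reads in 19 of 40 v53L cells, 4 of 35 vBrL cells and 1 of 39 vBr53L cells, and in 2 of the 198 pregnant cells. The median cell devoted 0.726% of its reads to casein in v53L, 2.44% in vBrL and 2.20% in vBr53L, and 10.1% to 16.7% in pregnant mice, where the highest cell reached 33.4%. When the cells under 0.1% were left out, the CVs of *Csn1s1*, *Csn1s2a* and *Csn2* still did not overlap, whereas *Csn3* did, with 0.587 to 0.844 in virgin and 0.605 to 0.732 in pregnant mice (difference -0.06, exact permutation p = 0.486).

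Across cells of 1 mouse the 4 caseins went together. The mean Spearman correlation over the 7 luminal mice was 0.82 between *Csn1s1* and *Csn1s2a* and 0.82 between *Csn1s2a* and *Csn2*, and between 0.73 and 0.75 for *Csn3* with each of the others. The lowest value in a luminal mouse was 0.50, between *Csn1s2a* and *Csn3* in vBr53L. Summed casein correlated with reads per cell at 0.11 to 0.52 within luminal mice, and the part of depth in these correlations was not tested. Most casein-positive cells were positive for all: at 1000 CPM or more, 20 of the 30 vBrL cells with any casein had all 4, 20 of 38 in vBr53L, 13 of 21 in v53L, and 179 of the 193 in pregnant mice. In vBr53L, 15 further cells had 3 of the 4.

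The luminal gland holds hormone-sensing cells, which carry the receptors for estrogen, progesterone and prolactin, beside the alveolar lineage that makes milk. Cells were therefore split by reads of at least 2 of *Esr1*, *Pgr* and *Prlr* after each cell was thinned to 100000 reads. Such cells numbered 15 of 35 in vBrL, 16 of 39 in vBr53L and 28 of 40 in v53L. They numbered 12 of 71 in pBrL-1, 10 of 38 in pBrL-2, 9 of 53 in pBr53L and 3 of 36 in p53L, which was left out of the test for having under 5.

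In 2 of the 3 virgin mice the receptor positive cells had far less casein. In v53L the median *Csn2* level was 30.7 CPM in receptor positive cells and 13041 CPM in the others, and in vBrL 18.4 and 9314 CPM. In vBr53L it was 3601 and 9521 CPM, a much smaller gap. With classes made from all reads the vBr53L difference in mean log2(CPM + 1) turned positive for *Csn1s1* (0.12), *Csn1s2a* (0.22) and *Csn2* (0.74) and stayed negative for *Csn3* (-0.64). In the pregnant mice the *Csn2* medians were 50811 and 49381 CPM in pBrL-1, 41325 and 36453 CPM in pBrL-2, and 63104 and 45701 CPM in pBr53L. In pBrL-2 the receptor positive cells also had the higher medians of *Csn1s2a* (32805 and 19582 CPM) and *Csn3* (16615 and 8266 CPM), while in pBrL-1 they had the lower ones (30050 and 33765 CPM, and 12426 and 15371 CPM).

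The mean difference in log2(CPM + 1), receptor positive minus other cells, was -5.45, -0.89 and -6.92 for *Csn2* in vBrL, vBr53L and v53L, and 0.50, -0.26 and 0.38 in pBrL-1, pBrL-2 and pBr53L. Over the 6 mice the mean was -2.11 for *Csn2*, below 0 in 4 of 6 mice (exact sign-flip permutation p = 0.219). It was -1.97 for *Csn1s1* in 5 of 6 mice (exact sign-flip permutation p = 0.0938), -1.73 for *Csn1s2a* in 3 of 6 (exact sign-flip permutation p = 0.344) and -1.95 for *Csn3* in 3 of 6 (exact sign-flip permutation p = 0.25). The smallest p this test allows is 0.0312, and none of the 4 passed. The classes had similar depth, with medians of 1043890 and 1060020 reads per cell in v53L. *Prlr*, 1 of the 3 genes that set the class, had 525 to 3713 CPM in virgin and 162 to 221 CPM in pregnant mice. Of the 6 hormone-sensing markers 0 passed, and 6 had an unadjusted p under 0.05 (8.99% of all genes) with lower values in pregnant mice, at a median difference of -4.44 against 0.14 over all genes. Within mice the Spearman correlation over cells between summed casein and these markers was -0.73 in v53L, -0.44 in vBrL and -0.11 in vBr53L, and -0.09 to 0.18 in pregnant mice. Other marker sets also varied with casein in these virgin mice. In the same order, red cell markers had -0.70, -0.60 and -0.37 and fibroblast markers -0.47, -0.39 and -0.29. Luminal progenitor and alveolar markers had 0.81, 0.19 and 0.16. The part of hormone-sensing cells in the difference between stages was not tested.

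**Figure D4:**
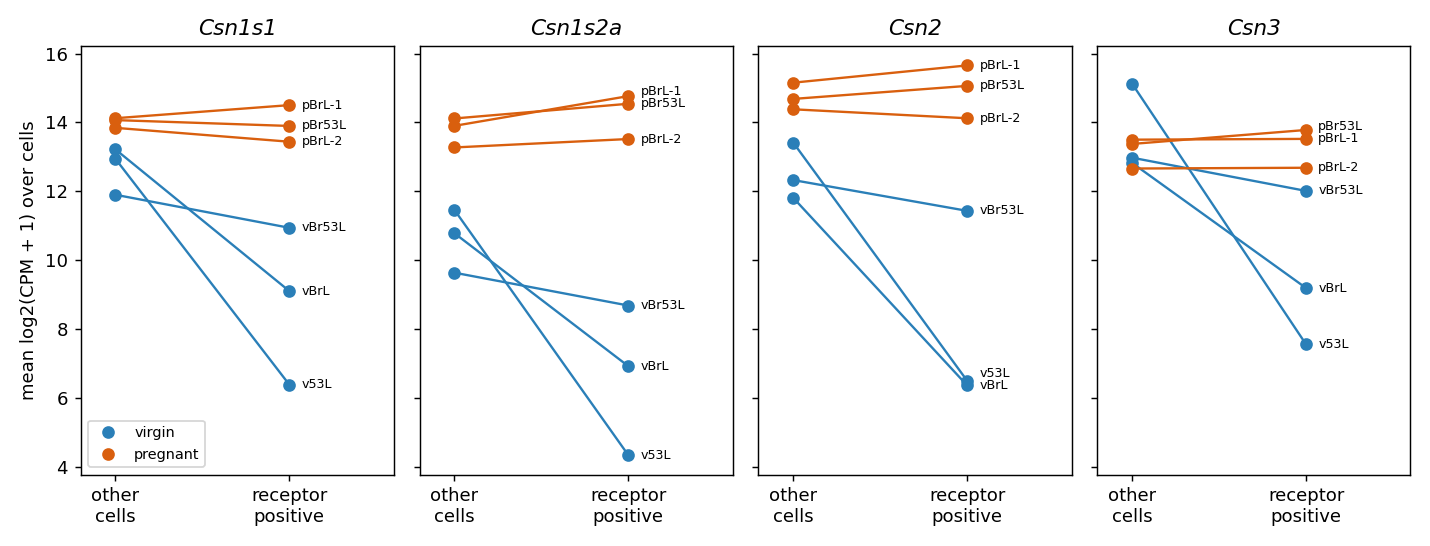
Mean log2(CPM + 1) of each casein in receptor positive cells and in the other cells of the same mouse, joined by a line per mouse, with virgin mice in blue and pregnant mice in orange. The lines of v53L and vBrL slope down steeply for all 4 caseins, that of vBr53L by 0.89 to 0.96, and those of the pregnant mice run between -0.40 and 0.86.

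Luminal mice with and without *Brca1* were also compared at equal stage. The difference between *Brca1*-deficient (Br and Br53) and 53 mice was -0.87 ± 0.26 (log2, SE) for *Csn3* (edgeR adjusted p = 0.839). It was -0.72 ± 0.36 for *Csn1s2a* (edgeR adjusted p = 0.839), -0.47 ± 0.34 for *Csn1s1* (edgeR adjusted p = 0.839) and -0.13 ± 0.28 for *Csn2* (edgeR adjusted p = 0.943). No casein passed. Of 13709 genes edgeR called 0 (0%), with 757 at an unadjusted p under 0.05, whereas 873 passed in DESeq2, which gave *Csn3* an adjusted p of 0.0926. Only v53L and p53L, both on chip SC9, had wild type *Brca1*. Without p53L the values of *Csn1s1* and *Csn2* turned to 0.18 and 0.14 and that of *Csn1s2a* was -0.064, while without v53L *Csn1s2a* had -1.21.

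The last comparison asked what casein remained in tumors that arose in *Brca1*-deficient mice. *Csn2* had 0 reads in BrT1, only 2 in BrT2 (0.040 CPM), 25.2 CPM in Br53T1 and 873 CPM in Br53T2. For *Csn1s2a* the values were 0 reads in BrT1 and 0.120, 28.02 and 406 CPM in BrT2, Br53T1 and Br53T2. For *Csn1s1* they were 0 reads and 6.47, 603 and 880 CPM. For these genes a count of 0 in BrT1 allows up to 0.033 CPM (3 reads over the group).

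*Csn3* was the most abundant casein in every tumor. BrT2 had 3731 CPM, Br53T1 3019, Br53T2 1634 and BrT1 4.39, while the 5 *Brca1*-deficient luminal mice ranged from 6954 to 19699 CPM. In BrT2 it ranked 18 among all genes and in Br53T1 21. Per kilobase it exceeded *Csn1s1*, the next casein, 820-fold in BrT2, 7.13-fold in Br53T1 and 2.64-fold in Br53T2 (in Br53T2 *Csn2* was the next, at 2.11-fold), whereas in *Brca1*-deficient luminal mice the *Csn3* to *Csn1s1* ratio was 0.968 to 2.34. In v53L, with wild type *Brca1*, it was 3.72, above that of Br53T2. Every tumor lay below every *Brca1*-deficient luminal mouse for all 4 caseins, an arrangement found in 2.51% of the 12978 genes tested.

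In the fit across all genes the tumor against *Brca1*-deficient luminal difference was -7.83 ± 2.44 (log2, SE) for *Csn1s2a* (edgeR adjusted p = 0.184) and -7.33 ± 2.58 for *Csn2* (edgeR adjusted p = 0.233). It was -5.65 ± 1.98 for *Csn1s1* (edgeR adjusted p = 0.231) and -2.78 ± 1.15 for *Csn3* (edgeR adjusted p = 0.315). No casein passed in edgeR, which called 79 genes (0.609%), 28 of them lower (0.216%). Without Br53T2 the difference was -11.37 for *Csn1s2a* and -12.07 for *Csn2*, and against the 2 virgin mice alone it was -6.23 and -5.84, with none of these passing. DESeq2 called *Csn1s2a* (adjusted p = 0.000398), *Csn2* (adjusted p = 0.00287) and *Csn1s1* (adjusted p = 0.00942), not *Csn3*. It called 1334 of 14188 genes, 509 of them lower. The tumors differed widely among themselves for *Csn1s1*, *Csn1s2a* and *Csn2*, whereas for *Csn3* BrT1 alone stood far below the other 3.

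The share of cells with a casein read, after each cell was thinned to 100000 reads, was also compared. *Csn2* was read in 0 of 47 BrT1 cells, which allows a share of up to 6.38%, and in 0 of 37 BrT2 cells, which allows up to 8.11%. It was read in 1 of 30 Br53T1 cells (3.33%, exact 95% binomial interval 0.0844% to 17.2%) and 14 of 51 Br53T2 cells (27.5%, 15.9% to 41.7%). In luminal mice the share of *Csn2* was 80% to 100%, with the lowest in v53L. *Csn3* was read in 12 of 47 BrT1 cells (25.5%, 13.9% to 40.3%), 30 of 37 BrT2 cells (81.1%, 64.8% to 92.04%), all 30 Br53T1 cells (100%, 88.4% to 100%) and 21 of 51 Br53T2 cells (41.2%, 27.6% to 55.8%).

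For *Csn1s1* the share was 77.5% to 100% in luminal mice, while BrT1, BrT2, Br53T1 and Br53T2 had 0%, 21.6%, 36.7% and 29.4%. For *Csn1s2a* it was 55% to 100%, while the same tumors had 0%, 0%, 3.33% and 21.6%. The lowest luminal value was that of v53L for each of the 4 caseins. The mean share was lower in tumors, by a difference of -86.7 percentage points for *Csn2*, -83.0 for *Csn1s2a* and -73.3 for *Csn1s1* (exact permutation p = 0.00303 each, two-sided, 4 tumors against 7 luminal mice, 330 splits, adjusted 0.0182 over the 18 tests). None of these 3 overlapped between the arms, which held for 0.532% of the 12978 genes. For *Csn3* the mean difference was -34.4 points and the arms overlapped (exact permutation p = 0.0455, adjusted 0.0744). Intervals and limits cover counting error only, since reads without molecular identifiers include PCR copies.

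**Figure D5:**
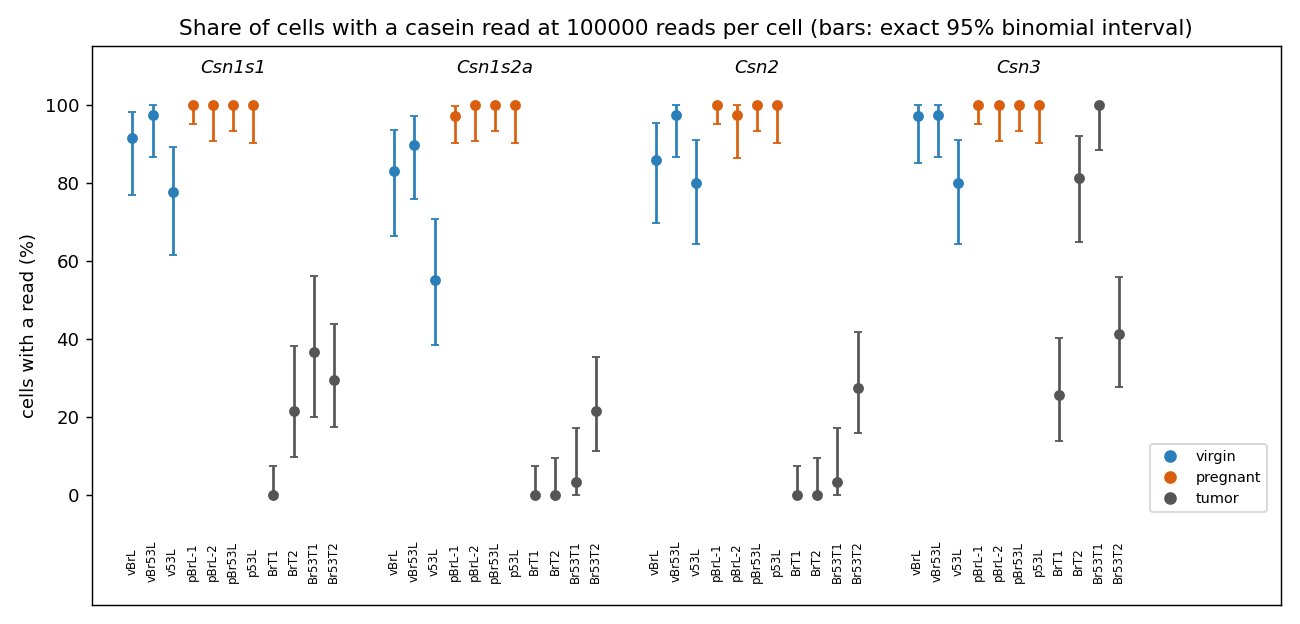
Share of cells with at least 1 read of each casein at 100000 reads per cell (vertical axis, percent) for the 11 mice, with exact 95% binomial intervals, virgin in blue, pregnant in orange and tumors in grey. Tumors lie below all luminal mice for *Csn1s1*, *Csn1s2a* and *Csn2*, while for *Csn3* BrT2 (81.1%) and Br53T1 (100%) lie in the range of luminal mice.

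How far few cells held the casein reads differed between tumors. In Br53T2 the median cell had 0.00165% of its reads in casein and the highest 5.38%. A single Br53T2 cell gave 98.9% of the *Csn1s2a* reads and 59.3% of the *Csn2* reads of that tumor, and its 3 highest cells gave 71.5% of the *Csn3* reads. In Br53T1 a single cell gave all *Csn1s2a* and *Csn2* reads, whereas for *Csn3*, read in all 30 cells, the 3 highest cells gave 45.5%. In BrT2 the 3 highest cells gave 60.98% of the *Csn3* reads, and in BrT1 they gave 24.1%, where the highest of the 47 cells had 31.3 CPM of *Csn3*.

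Most tumor cells with casein at 1000 CPM or more carried 1 or 2 of the 4 genes. At this level 11 BrT2 cells had a casein, and in all 11 it was *Csn3* alone. In Br53T1 16 cells had a casein, of which 11 had *Csn3* alone and 5 had 2 caseins. In Br53T2 9 cells had a casein, of which 2 had *Csn3* alone, 6 had 2 caseins and 1 had all 4. The difference from luminal cells in these combinations was not tested.

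Individual Br53T2 cells show how the combinations differed. The cell with the most casein had 10362 CPM of *Csn1s1*, 17051 of *Csn1s2a*, 21997 of *Csn2* and 4372 of *Csn3*, with 5512 CPM of the epithelial marker *Epcam*. The next had 5900 CPM of *Csn1s1* and 16628 of *Csn3* with 2.09 of *Csn2*. The third had 9776 CPM of *Csn1s1* and 12200 of *Csn2* with 3.77 of *Csn3*. These cells were picked for their casein and are given as a description.

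Br53T2 was the only tumor that shared a chip with luminal cells, those of pBrL-2 on SC6. It was also the tumor in which low levels of *Csn2* were most widespread, with reads in 78.4% of cells when all reads were used and a median of 2.69 CPM, whereas the other tumors had a median of 0. On that chip the difference between Br53T2 and pBrL-2 in log2(CPM + 1) was -5.43 for *Csn2*, -5.98 for *Csn1s2a*, -4.47 for *Csn1s1* and -3.02 for *Csn3*. The *Csn3* to *Csn2* ratio per kilobase was 2.11 in Br53T2 and 0.395 in pBrL-2. *Glycam1*, a milk mucin gene with 2717 CPM in pBrL-2, had 0.088 CPM in Br53T2. Whether cells or RNA of the chip contributed to these reads was not tested.

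Other milk genes were read beside the caseins. Of 12 genes for further milk proteins and the milk fat globule, 0 passed in the pregnancy comparison, while 7 had an unadjusted p under 0.05, against 8.99% of all genes, and all 7 were higher. Their median difference was 2.05 against 0.14 over all genes. *Wap*, the gene of whey acidic protein, had 0.635 to 26.3 CPM in virgin and 216 to 444 CPM in pregnant mice (5.61 ± 0.93, log2, SE, edgeR adjusted p = 0.129). *Plin2*, a lipid droplet protein gene, had 254 to 1148 CPM and 3099 to 4520 CPM (2.40 ± 0.41, edgeR adjusted p = 0.132). *Xdh*, a globule enzyme gene, had a difference of 1.23 (edgeR adjusted p = 0.278). *Glycam1* had 0 to 15.5 CPM in virgin and 2717 to 6209 CPM in pregnant mice (edgeR adjusted p = 0.181), and *Lao1* 0 to 46.9 CPM and 165 to 480 CPM (edgeR adjusted p = 0.324).

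In virgin mice these genes differed widely in level. In vBrL, *Wap* and *Glycam1* stood at 0.635 and 15.5 CPM beside 10645 CPM of *Csn2*, whereas in v53L *Spp1*, the gene of osteopontin, had 21352 CPM, above each casein there, and *Trf* and *Mfge8* had 2313 and 2191 CPM. *Spp1* and *Mfge8* were added here after their values were seen. In the tumors *Glycam1* was the 1 gene of this list that passed, lower, with at most 0.088 CPM in a tumor (edgeR adjusted p = 0.0333). Of all genes tested, 0.216% were called lower. At an unadjusted p under 0.05 there were 8 of 12, all lower, against 13.8% of all genes. The list's median difference in tumors was -3.54 against 0.06 over all genes. *Lalba*, the gene of alpha lactalbumin, was highest in v53L (698 CPM) and had 144 to 220 CPM in pregnant mice.

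Genes of the prolactin and STAT5 pathway did not move as a block. Of 15, 14 were tested for pregnancy and 0 passed, with 2 higher and 1 lower at an unadjusted p under 0.05 (8.99% of all genes) and a median of -0.19. *Elf5*, a transcription factor of the alveolar lineage, had 5.90 to 170 CPM in virgin and 135 to 1063 CPM in pregnant mice (3.76 ± 0.71, log2, SE, edgeR adjusted p = 0.181). *Prlr*, the prolactin receptor, had 525 to 3713 CPM in virgin and 162 to 221 CPM in pregnant mice (-2.82 ± 0.41, edgeR adjusted p = 0.113). *Cish*, a feedback inhibitor induced by STAT5, had at most 49.2 CPM in virgin and 72.7 to 207 CPM in pregnant mice (1.91, edgeR adjusted p = 0.328). *Stat5a* (-0.42, edgeR adjusted p = 0.75) and *Stat5b* (1.37, edgeR adjusted p = 0.582) did not pass. In tumors 0 of 15 passed, and 6 were lower and 3 higher at an unadjusted p under 0.05 (13.8% of all genes).

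Of 10 genes for casein phosphorylation, calcium transport and secretion, 0 passed in pregnancy, and 2 were higher at an unadjusted p under 0.05 (8.99% of all genes). These were *Fam20c*, the kinase that phosphorylates caseins (1.501, edgeR adjusted p = 0.502), and its partner *Fam20a* (2.64, edgeR adjusted p = 0.456). The list's median was 0.73. *Slc34a2*, a phosphate transporter gene, had a difference of 2.43 (edgeR adjusted p = 0.579), and *Hspa5* and *Xbp1*, of the endoplasmic reticulum, 0.57 (edgeR adjusted p = 0.62) and 0.45 (edgeR adjusted p = 0.687). In tumors 0 of the 9 tested passed (0.609% of all genes did), 2 were lower at an unadjusted p under 0.05 (13.8% of all genes), and the median was -1.19. With genotype as the contrast 0 genes of the 3 lists passed, and at an unadjusted p under 0.05 (5.52% of all genes) there were 5 of 12 milk genes, all lower, 1 higher and 2 lower of 14 pathway genes and 0 of 10 supply genes.

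Genes with a pattern most like the summed caseins were then listed as a description. Over the 11 mice, among the 8882 genes that averaged 10 CPM or more, the highest Pearson correlations of log2(CPM + 1) were those of *Tbc1d8* (0.972), *Stap2* (0.969) and *Wfdc18* (0.967). *Wfdc18* ranged from 3080 to 20540 CPM in virgin, 18476 to 22908 CPM in pregnant mice and 1.62 to 4632 CPM in tumors. The points are mice that fall into luminal cells and tumors, so this likeness largely orders those 2 kinds of cell.

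Within the 7 luminal mice, among 5305 genes with a read in at least 20% of the cells of each, the highest mean Spearman correlation over cells was that of *Trf*, the gene of the iron carrier transferrin, a milk protein (0.65, 0.51 to 0.86 by mouse). *Lipa*, a lysosomal lipase gene, followed (0.58, 0.41 to 0.75), and *Lalba* (0.58, 0.35 to 0.81). The lowest were *Tagln2* (-0.54), *S100a6* (-0.53) and *Krt7* (-0.45), each below 0 in all 7 mice. Cells compared this way share a mouse and a chip, and each has a fixed total of CPM, of which casein took up to 33.4%. Among tumors *Trf* was highest in BrT2 (4304 CPM), then Br53T1 (1067), Br53T2 (200.6) and BrT1 (3.49), the same order as *Csn3*.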

How the data were processed

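The authors filtered reads with sickle, trimmed them with Trim Galore 0.4.1, aligned them to mm10 with STAR 2.5.3a and counted them with Subread 1.5.3 (versions from the submitters' processing notes). The authors deposited counts, not normalized, of the reads on each gene in each cell, without molecular identifiers. The annotation release, strand setting and filters before deposit are not given in the sources used here. The authors looked for doublets under a microscope, and none were called again. All 477 columns were matched to cells by title, and 0 value columns were left out.

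For each mouse the counts of its cells were added up, and all genes were tested by the quasi-likelihood method of edgeR 4.0.16 in R 4.3.3 (TMM scaling, low genes removed by filterByExpr), two-sided, with Benjamini-Hochberg adjustment over all genes tested and a threshold of 0.05. The filter left 13709 genes in the luminal fits and 12978 in the tumor fit, and all 4 caseins passed it in each. Stage was fitted with genotype, genotype with stage, and tumors against the 5 *Brca1*-deficient luminal mice without covariate. SEs of edgeR differences were back-calculated as the size of the difference over the square root of its F statistic. CPM are scaled by summed reads. Ratios used 0.5 read as pseudocount, and cell means log2(CPM + 1). Ratios, CVs, shares and classes were tested by exact permutation over mice in Python 3.11.15, two-sided. Shares used cells thinned to 100000 reads, which removed 0 cells, with exact 95% intervals and a limit of 3 counts for a 0. The depth per cell was 170209 to 3550564 reads. P-values measure the spread between these mice, which is also that between chips.

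Alternatives were RLE factors, scaling without casein reads, DESeq2 1.42.0, no filter, cells with at least 2000 genes, 30 cells per mouse, limma 3.58.1 on mean CPM over cells, other covariates and arms, other definitions of ratio, spread, share and class, and leaving out each mouse. The edgeR step was also run on simulated counts. The changes drawn there were larger than those of the caseins between stages. That run therefore does not show whether changes of the casein size would be found. The members and lists were chosen with earlier results of these data known. Named genes were the 4 caseins, at most 5 genes per list (smallest p for pregnancy, and those called) and 3 per likeness measure. The single-gene exact test, the union of exons, the spread without low-casein cells, the levels of 1000 CPM, 0.1% and 3 highest cells, and the Br53T2 cells described were chosen after the values were seen.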

Additional observations from a re-analysis of the deposited data

Results flagged for a closer look

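In 34 groups of 4 to 7 mice, 8 had an extreme mouse that stood apart by Dixon's criterion at 95%, a criterion that chance meets in about 1 in 20 groups. Br53T2 stood above the other 3 tumors in *Csn2*, with 873 CPM and a share of cells of 27.5%, and in *Csn1s2a*, with 406 CPM and a share of 21.6%. Among the 7 luminal mice v53L stood below the others in the share of cells with *Csn1s1* (77.5%), *Csn1s2a* (55%) and *Csn3* (80%). The cell-to-cell CV of *Csn1s1* was lowest in pBrL-1 among the pregnant mice, at 0.419.

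Receptor positive cells differed from the other cells in opposite directions by stage for both *Csn1s2a* (a mean of 0.51 in 3 pregnant and -3.98 in 3 virgin mice) and *Csn3* (0.15 and -4.06), with the mean log2 value of each of the 6 mice that entered on the side of its stage, although for *Csn3* pBrL-1 and pBrL-2 were at only 0.023 and 0.022. By median CPM pBrL-1 was on the other side for both genes. The split also did not hold with classes from all reads, where *Csn1s2a* was 0.22 in vBr53L and *Csn3* was -0.41 in p53L, nor in p53L as first classed, with 3 positive cells (-0.86 and -0.73). The exact permutation p of the difference between stages was 0.1 for each, two-sided, the smallest that 20 splits allow. The *Csn1s2a* to *Csn2* log2 ratio was higher in pregnancy by 0.77 in Br53 and 0.75 in 53 mice, and differed by -0.37 in Br mice, a difference between genotypes that was not tested.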

How the results depend on the processing

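Of 184 alternatives over all results, 146 were counted as unchanged. For those with a p-value this meant the same direction and side of the threshold, which for exact tests is here an unadjusted p of 0.05. Values within a chip have no p. They were counted as unchanged when they kept direction and lay closer to the main value than the SD over pregnant or tumor mice. Lengths from the union of exons cannot change the ratio differences and were counted as unchanged without a further test. For pregnancy, *Csn1s1*, *Csn1s2a* and *Csn2* passed with DESeq2 (1.70, 2.46, 2.18), without the filter (1.75, 2.51, 2.23), with limma on cell means (1.80, 2.56, 2.21) and in a single-gene exact permutation test chosen after seeing the data (1.69, 2.43, 2.15, exact p = 0.0286 each). *Csn1s2a* also passed with chip as a block (3.07) and *Csn2* without covariate (2.19). On chip SC9 alone the differences were 2.42, 3.20, 2.45 and, for *Csn3*, 0.36. Leaving out a mouse gave 2.16 to 3.04 for *Csn1s2a*, which passed without v53L or p53L (edgeR adjusted p = 0.0351 and 0.0397), and 2.06 to 2.31 for *Csn2*, which passed without vBr53L, v53L or p53L (edgeR adjusted p = 0.0421, 0.0252 and 0.0251). For tumors, *Csn1s1*, *Csn1s2a* and *Csn2* passed with DESeq2 (-5.66, -7.84, -7.33) and limma (-8.41, -10.62, -11.06), and all 4 in the exact permutation test (-8.37, -10.63, -11.02 and -4.50 for *Csn3*). Leaving out a mouse gave -6.53 to -5.24, -11.37 to -7.42, -12.07 to -6.92 and, for *Csn3*, -3.33 to -2.37, none passing, and 2 virgin luminal mice alone gave -4.69, -6.23, -5.84 and -2.24. For genotype, *Csn2* reversed with limma (0.020) and exact means (0.23), and without p53L *Csn1s1* (-0.95 to 0.18) and *Csn2* (-0.36 to 0.14) did.

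Genes called for pregnancy numbered 2, against 0 without vBrL or pBrL-1, 1 with 30 cells per mouse, 5 to 41 without another mouse, 17 without covariate, 82 with limma, 96 with the chip block, 366 without the filter and 1285 with DESeq2. For tumors they numbered 79, against 0 with 2 virgin luminal mice, 44 with 3 pregnant ones, 11 to 94 without a mouse, 48 with 30 cells, 129 without the filter, 213 with 7 luminal mice, 369 with limma and 1334 with DESeq2. For genotype 0 became 2 in pregnant mice only, 3 without v53L, 45 higher and 61 lower without the filter, 142 without p53L and 873 with DESeq2.

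As medians over cells the *Csn1s1* to *Csn2* difference was -0.92 (unadjusted exact p = 0.0286). The unadjusted exact p of the *Csn3* spread was above 0.05 as an SD of log2 values (-1.86) and without low-casein cells (-0.057), as was that of its share with all reads (-11.4), and after adjustment neither had passed in the main tests. With at least 1 receptor gene vBrL and v53L drop out, and *Csn1s1*, *Csn1s2a*, *Csn2* and *Csn3* reversed (0.44, 0.59, 0.69, 0.48). Without a mouse, ratios ranged from -1.84 to -1.07 (*Csn3* to *Csn2*), -2.30 to -1.43 (*Csn3* to *Csn1s2a*) and 0.65 to 0.83 (*Csn1s2a* to *Csn1s1*), CVs from -0.87 to -0.49 (*Csn1s1*), -1.19 to -0.96 (*Csn1s2a*), -0.93 to -0.84 (*Csn2*) and -0.42 to -0.19 (*Csn3*), and the *Csn3* share from -47.1 to -22.3. With 6 mice the exact test cannot go below 0.0667, and receptor tests on fewer than 6 mice cannot pass either, so leaving out a mouse says nothing of their stability or of that of ratios and CVs. The causes were not tested. By replicate number, no paired analysis was possible because these numbers name cells or mice and pair no mice across groups. Pairing by chip was possible for the Br53 and 53 mice only, with 1 mouse per stage on each chip, and is given above as the chip block.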
